A study of Homo sapiens with 6 samples.

Results

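The high mobility group (HMG) genes encode small, abundant chromatin proteins of 3 families, HMGA, HMGB and HMGN, and were examined here in the breast cancer cell line MDA-MB-231, an established human line of mesenchymal character. The members were the rows of the deposited gene table whose symbol is *HMGA1*, *HMGA2*, *HMGB1*, *HMGB2*, *HMGB3*, *HMGN1*, *HMGN2*, *HMGN3*, *HMGN4* or *HMGN5*. All 10 were found among the 15917 genes listed.

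Total RNA was sequenced from 3 groups of cells with 2 biological replicates each, 6 libraries in all. One group carried a control hairpin (shCTRL), and the others carried one of 2 hairpins against *RBMS3*, shRBMS3-B3 or shRBMS3-C3. RBMS3 is an RNA-binding protein that the study examines as a regulator of mRNA stability, and the question put to these libraries was which transcripts depend on it. All groups were grown in the same medium. The hairpins, the control included, were delivered with lentivirus to cells labelled with luciferase, under puromycin selection. The only measurement used here is the authors' mean normalized count, a single value for each gene that pools libraries. It has no spread between replicates, the depth behind it is unknown, and neither the knockdown effect nor the order of 2 genes with close levels could be tested with it.

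HMGA proteins bind the minor groove of A/T-rich DNA through short AT-hooks. HMGB proteins bend DNA with their HMG boxes, and HMGB1 also acts as an inflammatory signal once it leaves the cell. HMGN proteins bind the nucleosome itself and loosen compact chromatin. *HMGA2* is best known as an embryonic gene that tumours express again and whose long 3′ untranslated region (3′UTR) is held in check by let-7 microRNAs.

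*HMGA1* was the highest of the family and *HMGN5* the lowest. The authors' mean normalized count, divided by the kilobases of a gene's representative transcript so that genes could be compared, was 12170 for *HMGA1* and 98.9 for *HMGN5*, which is 123-fold lower. Of the 10 members, 9 lay above 137, the median of all listed genes on this scale, and 4 lay above its percentile 90. *HMGA1* alone held 51.8% of the summed level per kilobase. The 2 HMGA genes together held 54.7%, the 3 HMGB genes 22.6% and the 5 HMGN genes 22.7%.

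**Figure D1:**
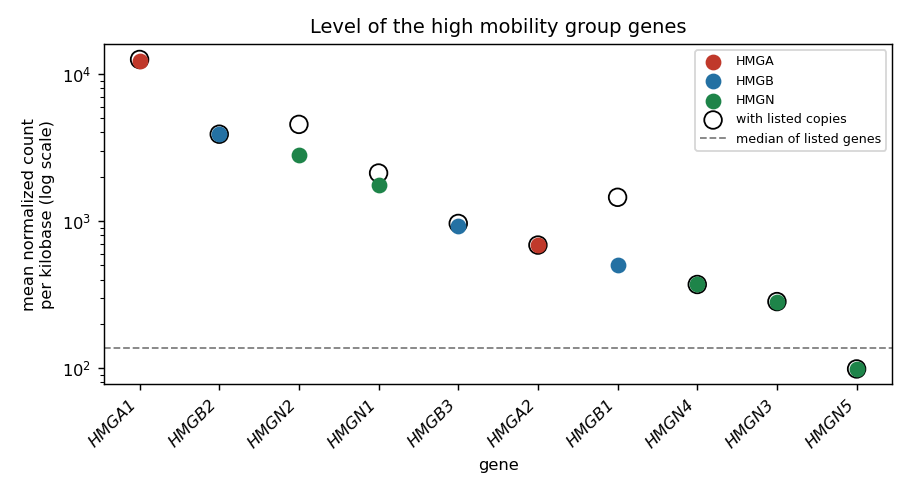
Level of each of the 10 HMG genes as the authors' mean normalized count per kilobase of transcript, on a log scale, with families in colour, open circles for the level once listed pseudogene copies are added, and a dashed line at the median of all listed genes. *HMGA1* stands highest at 12170, *HMGN5* is the one gene under the line, and the open circle lies furthest from the filled one at *HMGB1*.

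In the HMGA family, *HMGA1* (ENSG00000137309, chromosome 6, 34236873 to 34246231 on the plus strand of GRCh38 in GENCODE release 44) had an authors' mean normalized count of 23367. Its level per kilobase lay at percentile 98.98 of the listed genes. *HMGA2* (ENSG00000149948, chromosome 12, 65824460 to 65966291, plus strand) had a mean normalized count of 2827, or 687 per kilobase of its 4117-base transcript, at percentile 85.1. The level per kilobase of *HMGA1* was 17.7-fold that of *HMGA2*. This ratio rested on the transcript chosen: it was 30.99 with the longest annotated transcript of each gene, 53.5 with merged exons and 8.27 with no division by length.

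In the HMGB family, *HMGB2* (ENSG00000164104, chromosome 4, 173331376 to 173334432, minus strand), which is bound up with proliferating cells, was listed highest. Its mean normalized count was 5606, or 3891 per kilobase, at percentile 97.4. *HMGB3* (ENSG00000029993, chromosome X, 150980509 to 150990771, plus strand) followed with a mean normalized count of 3268, or 932 per kilobase. *HMGB1* (ENSG00000189403, chromosome 13, 30456704 to 30617597, minus strand) had a mean normalized count of 2729, or 500.3 per kilobase of its 5456-base transcript, at percentile 80.1. As listed, the level per kilobase of *HMGB2* was thus 7.78-fold and that of *HMGB3* 1.86-fold that of *HMGB1*, before pseudogene copies were added.

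The 5 HMGN genes ranged from *HMGN2* to *HMGN5*. *HMGN2* (ENSG00000198830, chromosome 1, 26472440 to 26476642, plus strand) had a mean normalized count of 5480, or 2825 per kilobase, and *HMGN1* (ENSG00000205581, chromosome 21, 39342315 to 39349647, minus strand) one of 2234, or 1758 per kilobase. Both lay above percentile 90 of listed genes per kilobase of the representative transcript. The level of *HMGN1* depended most on the transcript, and was 520 per kilobase of its longest annotated transcript of 4299 bases. *HMGN1* then lay at percentile 83.5, and at 85.9 with merged exons and 88.96 with no division by length. *HMGN4* (ENSG00000182952, chromosome 6, 26538366 to 26546933, plus strand), whose coding sequence lies in 1 exon, had a mean normalized count of 720.1, or 371 per kilobase. *HMGN3* (ENSG00000118418, chromosome 6, 79201245 to 79234689, minus strand) had a mean normalized count of 272, or 284 per kilobase of a short transcript of 958 bases. *HMGN5* (ENSG00000198157, chromosome X, 81113699 to 81201913, minus strand), the member with a long acidic tail, had a mean normalized count of 208. Its level per kilobase lay at percentile 41.6, and that of *HMGN2* was 28.6-fold higher.

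**Figure D2:**
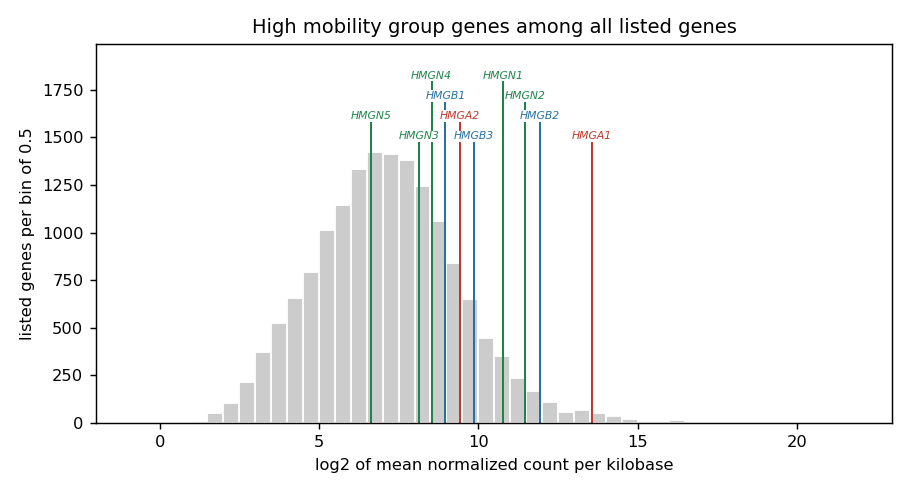
Number of listed genes by log2 of the authors' mean normalized count per kilobase in bins of 0.5, with vertical lines for the 10 HMG genes coloured by family (HMGA red, HMGB blue, HMGN green). *HMGN5* lies left of the median of 137 per kilobase, and the other 9 genes lie to its right, with *HMGA1* at percentile 98.98.

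Genes other than the 10 members whose proteins carry an HMG box gave a scale for these levels, although among the members only the HMGB proteins carry one. Of 22 such genes in a fixed list, which left out the SOX genes, 18 were listed. *HMGB4*, a further HMGB gene in that fixed list, was not among them. The 18 had a median of 228 mean normalized counts per kilobase and a range from 35.5 to 4074. *SSRP1*, a subunit of the histone chaperone FACT, was the highest at 4074 per kilobase and the one gene of that list above *HMGB2*. None of the 18 lay above *HMGA1*, 3 lay above *HMGB1*, and 15 lay above *HMGN5*. Linker histones compete with HMG proteins for chromatin. *H1-2* at 22030 and *H1-4* at 24600 mean normalized counts per kilobase were both above *HMGA1*, while *H1-10* at 1158 lay between *HMGN1* and *HMGB3*.

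Of 6 receptors through which extracellular HMGB1 is known to signal, 4 were listed and all 4 lay below the median of listed genes per kilobase. *TLR4* had 34.3 mean normalized counts per kilobase, *TLR2* 11.5, *CXCR4* 17.4 and *CD24* 43.1, and *AGER* and *HAVCR2* were not listed. With no division by length, *TLR4* at a mean normalized count of 434 lay above the median of 364, while *TLR2*, *CXCR4* and *CD24* lay below it. Of 8 genes that act on let-7 or share its control with *HMGA2*, 4 were listed. *IGF2BP2*, an mRNA-binding protein whose transcription HMGA2 drives, had 629 per kilobase, and that link was not tested here. *IGF2BP3* had 163, *DICER1* 152 and *AGO2* 283. *LIN28A* and *LIN28B*, which block let-7 maturation, *IGF2BP1* and *TRIM71* were not listed. A gene that is not listed had no value here, and why it is not listed was not tested. The lowest mean normalized count in the table was 26.7.

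The cell line was checked against its markers in the same column. All 6 mesenchymal markers were listed and lay above the median per kilobase, from *ZEB1* at 174 to *VIM* at 32189. Of 10 luminal epithelial genes, 8 were listed and 4 of these lay above the median, *KRT8* at 9979, *KRT18* at 8980, *ERBB2* at 342 and *CLDN4* at 274 per kilobase. *EPCAM*, *CLDN3*, *CLDN7* and *CDH1* lay below it, *CDH1* lowest at 6.57, and *ESR1* and *PGR* were not listed. None of 4 blood markers was listed. *RBMS3*, the targeted gene, had a mean normalized count of 272 and 32.1 per kilobase, a pooled value that does not check the hairpins.

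The study ties RBMS3 to an AUA element in 3′UTRs, so this element was searched in the HMG transcripts. The paper also mapped where RBMS3 binds RNA in cells. *HMGB3* is among the genes of its in vivo screen, which it chose partly for RBMS3 binding in the 3′UTR. That binding evidence was not examined here. The motif has 7 letters. The first may be any base but C, the second and the sixth are either A or T, the middle 3 are ATA and the last is A, so that it stands for 12 heptamers. Of these, 3 hold the polyadenylation signal AATAAA. Only the transcript strand was searched and overlapping matches were counted. The first match after the stop codon in each HMG 3′UTR is shown with 10 bases on either side, in the sense of the mRNA and with the match in capitals, so that the elements can be compared between members.

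*HMGA1*, chr6:34246196-34246222, plus strand: gcagttacttGAATAAAaaaaatatcc

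*HMGA2*, chr12:65964014-65964040, plus strand: tcagcaggagTAATAAAtttactcaca

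*HMGB1*, chr13:30461052-30461078, minus strand: cacaaattagTTATATAtggggatggt

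*HMGB2*, chr4:173331965-173331991, minus strand: actagcttcaGTATAAAaactgtacag

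*HMGB3*, chrX:150988291-150988317, plus strand: gttttcaactGTATATAtctatagttt

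*HMGN2*, chr1:26475210-26475236, plus strand: ttatcaagttTTATAAAaatgcagaat

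*HMGN3*, chr6:79201554-79201580, minus strand: tggcatacgaAAATATAtaaggatgga

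*HMGN4*, chr6:26545542-26545568, plus strand: aaatcaagttTTATAAAagtgtagaat

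*HMGN5*, chrX:81114548-81114574, minus strand: atcaaaaattTTATAAAcacagccttt

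At least 1 match was found in 9 of the 10 HMG 3′UTRs, against 84.8% of the 12350 listed genes with an annotated 3′UTR. The exception was *HMGN1*, whose representative transcript has a 3′UTR of 797 bases and 65.1% A+U. Among the 398 listed genes within 20% of that length and 5 percentage points of that A+U content, 97.2% had a match. *HMGN1* has 21 annotated transcripts, and for every gene only the representative one was searched. *HMGA1*, with the lowest A+U content of the family at 39.6%, had 1 match, which begins 1322 bases after the stop codon and holds AATAAA, 19 bases before the transcript ends. Over all members 64 matches were counted, of which 23 hold AATAAA.

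*HMGB2* and *HMGN5* had the most matches for their length. The *HMGB2* 3′UTR holds 13 matches in 704 bases, or 18.5 per kilobase, against a median of 2.43 per kilobase over all listed genes. Of 1199 listed genes with a 3′UTR of similar length, 99.7% had fewer. Much of this comes from a TA repeat near the end of the transcript, 671 bases after the stop codon, where 9 overlapping matches begin and end within 30 bases. That stretch is shown because the count turns on it, with the bases of matches that lie wholly within it in capitals.

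*HMGB2*, chr4:173331380-173331409, minus strand: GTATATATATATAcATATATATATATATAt

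Without overlaps the *HMGB2* 3′UTR holds 5 matches. Of genes of similar length 93.4% then had fewer, and of the 209 that were also similar in A+U content 74.6% had fewer. In *HMGN5* the matches were spread along the 950 bases of the 3′UTR. It held 12 matches with overlaps and 10 without, and 98.5% and 99.7% of the 1356 genes of similar length had fewer, respectively. The A+U content of this 3′UTR was 72.9%, at percentile 98.1 of all listed genes. Among the 140 genes also similar in A+U content 92.9% had fewer matches with overlaps and 97.9% without. *HMGB1* and *HMGA2* each had 11 matches, in 4653 and 2999 bases. The median of genes of similar length was 11 for *HMGB1* and 7 for *HMGA2*. Among genes also similar in A+U content the medians were 15 and 10, and 23.5% and 57.0% of these genes had fewer matches. Without overlaps *HMGB1* held 10 matches and *HMGA2* 8, and 25.6% and 39.8% of the genes similar in both respects had fewer. *HMGB3* had 5 matches against a median of 7, and *HMGN2* and *HMGN4* had 3 and 4, each against a median of 3. Among genes also similar in A+U content the medians were 6 for *HMGB3*, 4 for *HMGN2* and 5 for *HMGN4*, and 35.3%, 27.6% and 28.4% of these genes had fewer matches. *HMGN3* had 4 in 443 bases against a median of 1, and 89.1% of genes of similar length had fewer. Of genes also similar in A+U content 73.4% had fewer than *HMGN3*, and 64.8% when overlaps were left out.

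**Figure D3:**
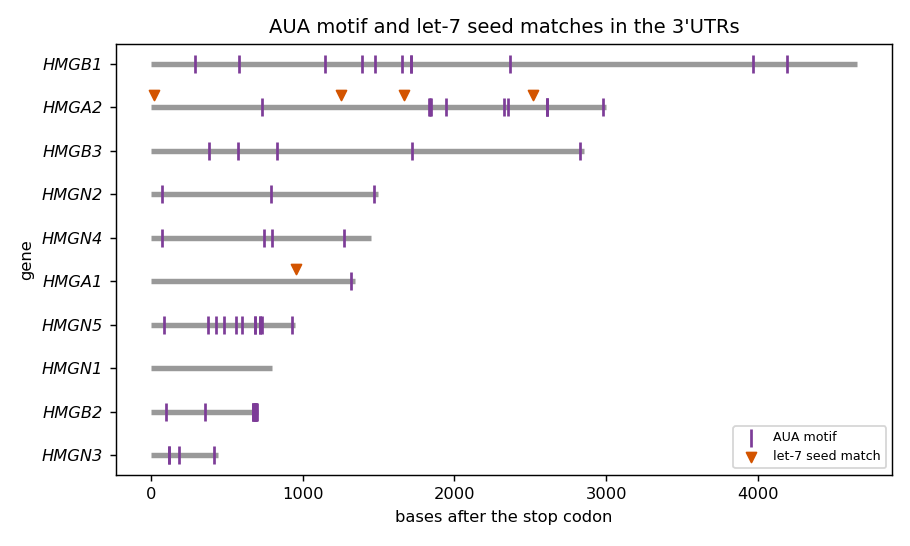
Position of AUA motif matches (vertical ticks) and let-7 seed matches (triangles) in the 3′UTR of each HMG gene, in bases after the stop codon, with the grey line as long as the 3′UTR. The ticks of *HMGB2* crowd at its end, those of *HMGN5* are spread along it, *HMGN1* has none, and triangles appear at 4 places in *HMGA2* and 1 in *HMGA1*.

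*HMGN2* and *HMGN4* carry their first match at nearly the same place, 72 and 73 bases after the stop codon, and 23 of the 27 bases shown for this pair are identical. Their coding sequences are each 273 bases long and 86.4% identical, the highest coding identity of the 14 pairs within families, and their 3′UTRs are 69.5% identical over aligned bases. Over aligned coding bases, *HMGB1* and *HMGB2* are 77.1% identical and *HMGA1* and *HMGA2* 67.0%. The level per kilobase of *HMGN2* was 7.62-fold that of *HMGN4*. No pair of members within a family shares a coding stretch of 31 bases.

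The let-7 family was examined for *HMGA2*. Its mature forms share the seed of bases 2 to 8, in capitals in hsa-let-7a-5p as given by RefSeq on GRCh38.p14, and the matching site in an mRNA reads CTACCTC.

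hsa-let-7a-5p: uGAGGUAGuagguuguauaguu

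*HMGA2* site 1, chr12:65963303-65963329, plus strand: cgttcgatttCTACCTCagcagcagtt

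*HMGA2* site 2, chr12:65964538-65964564, plus strand: ctactcaataCTACCTCtgaatgttac

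*HMGA2* site 3, chr12:65964950-65964976, plus strand: ttgcaaagacCTACCTCcagacttcaa

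*HMGA2* site 4, chr12:65965803-65965829, plus strand: aaacacactaCTACCTCttaagtccca

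*HMGA1* site, chr6:34245834-34245860, plus strand: tgttcacaaaCTACCTCtggacagttg

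The 4 sites of *HMGA2* begin 21, 1256, 1668 and 2521 bases after its stop codon, and 8 of the 12350 listed genes with a 3′UTR have as many or more. One such site occurs in *HMGA1*, 960 bases after the stop codon, and none in the other 8 members. Of all listed genes with a 3′UTR 11.3% hold the site. These are matches of letters in the annotated transcript, and neither the level of let-7 nor its effect was measured here.

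Pseudogene copies of the HMG genes were listed beside the genes themselves. GENCODE names 155 such copies of the members and the deposited table lists 26 of them, all 26 annotated as processed, that is, copied from an mRNA. They were mostly at a low level, with a median mean normalized count of 78.0. Their summed mean normalized count of 9753 came to 20.9% of that of the 10 members. *HMGB1* had 9 listed copies, *HMGN1* and *HMGN2* 6 each, *HMGA1* 3 and *HMGB3* 2, and the other members had none.

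*HMGB1P5* (ENSG00000132967, chromosome 3, 22381720 to 22382929, plus strand) was listed above the gene it was copied from. Its mean normalized count was 4051, or 148% of that of *HMGB1*. *HMGB1P6* (ENSG00000259781, chromosome 15) had a mean normalized count of 511. These counts are not divided by length, and the copies are shorter than *HMGB1*. Per kilobase of its own transcript *HMGB1P5* stood at 6310 and *HMGB1P6* at 791, both above the 500.3 of *HMGB1*. The *HMGB1* copies together came to 190% of the level of *HMGB1*. With them added, *HMGB1* had a mean normalized count of 7910, or 1450 per kilobase of its own transcript, and its percentile rose from 80.1 to 92.7. Its place among the members then moved from 7 to 5, above *HMGB3*. The ratio of *HMGB2* to *HMGB1* per kilobase was then 2.68 and that of *HMGB3* to *HMGB1* 0.66.

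*HMGN2P5* (ENSG00000234664, chromosome 15, 29730713 to 29730985, plus strand) had a mean normalized count of 3001, or 54.8% of that of *HMGN2*. Per kilobase of its own short transcript it stood at 10994, above the 2825 of *HMGN2*. With its 6 copies added, *HMGN2* reached 4536 per kilobase and passed *HMGB2*. For *HMGA1* and *HMGB3* the copies came to 2.93% and 3.33% of the member, and for *HMGN1* to 20.5%.

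*HMGN2P5* and *HMGB1P5* were also the copies most like their parents in sequence. Of the stretches of 31 bases in *HMGN2P5*, 87.2% occur in transcripts of *HMGN2*, and of those in *HMGB1P5*, 81.7% occur in transcripts of *HMGB1*. At 75 bases, the read length of the study, the shares were 77.4% and 56.5%. *HMGB1P6*, at 63.5% of its 31-base stretches, came next among all 26 copies. In counts not divided by length, each of these 3 was above 15% of its parent's level, while the other 23 were below 10%. Below these 3, likeness and level did not go together. *HMGN1P38*, at 56.0%, had 1.35% of its parent's level and *HMGB1P10*, at 44.3%, had 1.60%, while *HMGB1P20*, at 8.81%, had 9.36%. Whether level follows likeness was not tested. Seen from the parent, 91.7% of the 31-base stretches in the coding sequence of *HMGB1* also occur in its listed copies, but over its whole transcript, with the long 3′UTR, this share was 17.2%. For *HMGN2* the shares were 87.2% and 16.4%, for *HMGN1* 73.3% and 16.1%, for *HMGA1* 51.0% and 12.5%, and for *HMGB3* 40.1% and 6.61%. How the reads of *HMGB1* and *HMGN2* were divided between gene and copies was not tested, so the levels of these genes and of their copies are uncertain.

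**Figure D4:**
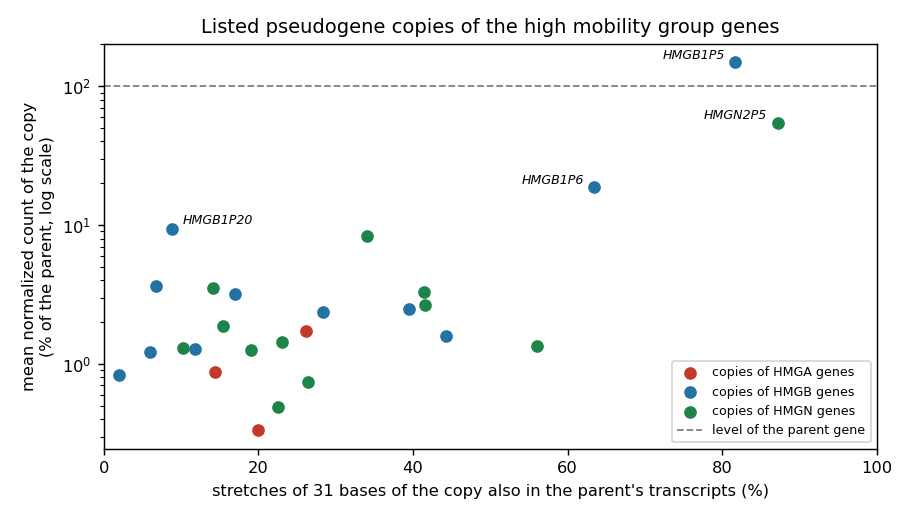
Each of the 26 listed pseudogene copies of HMG genes by the share of its 31-base stretches that also occur in transcripts of its parent gene (horizontal, %) and its authors' mean normalized count as a percentage of the parent's (vertical, log scale), with a dashed line at 100%. On these counts, which are not divided by length, *HMGB1P5* is the one copy above the line, and *HMGN2P5* and *HMGB1P6* are the next highest.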

How the data were processed

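Total RNA of 6 MDA-MB-231 libraries was sequenced after ribosomal depletion with a stranded kit for small inputs. The authors deposited one table, made with Salmon and DESeq2 on hg38 per the submitters' processing notes; versions and annotation are not given in the sources used here. Its signal is the authors' deposited mean normalized count per gene, a mean over libraries of counts divided by size factors; which libraries entered it is not stated. The other 5 columns of values hold a comparison of *RBMS3* knockdown with control cells made by the authors (log2 fold change, its standard error, statistic, p-value and adjusted p-value) and were not used, so no test was made, the planned edgeR fit included.

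Ensembl identifiers were matched to GENCODE release 44 (GRCh38), which holds 15829 of the 15917. Length was that of the MANE Select transcript, otherwise the Ensembl canonical one (*HMGN3*). Percentiles were taken over listed genes. Copies were GENCODE pseudogenes named for a member with P and a number; exact stretches were compared on the transcript strand. Coding sequences were aligned globally with Biopython 1.88 (match 2, mismatch -1, gap opening -5, extension -0.5), in place of the planned protein comparison. All 14 motif and let-7 windows that start from a single match equal the genome. Functions were tested on simulated sequences. Genes named were the members, their copies, *RBMS3* and fixed lists of HMG-box, linker histone, HMGB1 receptor, let-7 axis and marker genes, and 1 item among these is not reported here. The members and lists were chosen with earlier results of these data known. Python 3.11.15, numpy 2.4.6, pandas 2.3.3 and matplotlib 3.10.9 were used.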

Additional observations from a re-analysis of the deposited data

How the results depend on the processing

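With 1 choice changed at a time, 22 of 30 levels per kilobase and 14 of 24 ratios between members stayed within 1.5 times the reported value. These counts overstate stability, because some alternatives could not change the value. The longest transcript is also the representative one for *HMGB1*, *HMGB3*, *HMGN2*, *HMGN4* and *HMGN5*, and so for ratios between these genes. *HMGA2*, *HMGB2*, *HMGN3*, *HMGN4* and *HMGN5* have no listed copies to add. The level of *HMGN1* per kilobase was 520 with the longest transcript and 443 with merged exons, and that of *HMGA2* was 349 and 188. With merged exons *HMGB2* was at 2335 and *HMGN2* at 1719. The ratio of *HMGB3* to *HMGB1* turned from 1.86 to 0.66 with copies added and was 1.20 with no division by length, where that of *HMGB2* to *HMGB1* was 2.05. *HMGN2* to *HMGN4* ranged from 4.75 to 12.2, and *HMGN2* to *HMGN5* was 45.9 with copies added. Percentiles cannot rise far near their ceiling and say less of stability. *HMGN3* moved from 68.4 to 43.3 with no division by length, where 8 rather than 9 members lay above the median. *HMGN1* went from percentile 94.1 to 83.5 with the longest transcript, and *HMGA2* from 85.1 to 69.6 with merged exons. The HMGA share ranged from 49.1% with copies added to 61.7% with merged exons, and was 47.6% with copies added and no division by length. The *HMGB2* count of 13 matches became 5 without overlaps, and the *HMGA2* count of 11 became 8. The share of *HMGN2* stretches found in its listed copies went from 16.4% at 31 bases to 8.79% at 75. Merged or longest lengths for shares, 75-base stretches and matches without overlaps were chosen after seeing the data. No paired analysis was possible because each gene has 1 pooled mean. Leaving out replicates, each hairpin alone, another normalization or filter, and the protein comparison were not run. The unknown depth limits every level.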
